A study of Mus musculus with 25 samples.

Results

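Chromatin-modifying enzymes and remodelers were followed across growing mouse myoblasts of 3 genotypes. The genes were taken by name: histone deacetylases (Hdac), sirtuins (Sirt), acetyltransferases (Kat, Ep300, Crebbp), lysine methyltransferases (Kmt, Smyd, Ezh) with the Polycomb partners Eed and Suz12, lysine demethylases (Kdm), arginine methyltransferases (Prmt, Carm1), DNA methyltransferases (Dnmt) and the ATP-dependent remodelers of the Smarc and Chd names. This gave 189 probe sets of 86 genes, among 36701 non-control probe sets and 15964 genes with a single symbol. A probe set is a group of short probes on the array that reports 1 transcript, and 1 probe set of Kdm6b that carried a second symbol was left out. Of the 189, 146 were bright enough to be tested and 43 were not; 79 genes had a tested probe set, 37 of them more than 1, and 7 (Dnmt3b, Ep300, Kdm1b, Kdm5d, Kdm8, Prmt5 and Sirt3) had none.

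The myoblasts were grown from satellite cells, the stem cells of adult skeletal muscle, of wild type, MyoD-/- and p53-/- mice, and the series asked which genes lie downstream of these transcription factors. Each genotype had 3 RNA samples, lettered A to C, which were hybridised to the Affymetrix chip types U74Av2 and U74Cv2, while U74Bv2 had 3 wild type arrays, 3 MyoD-/- arrays and the single p53-/- array of sample A. All cells grew in medium with 20% serum and 4 ng/ml bFGF on collagen and were purified by preplating and passage to an estimated purity above 98%, judged by desmin, Myf5 and MyoD in wild type and by Myf5 and c-met in both knockouts. Strain, age, sex and the number of mice behind each letter are not given in the labels, the alleles are described only as -/-, and p-values therefore measure the spread between these samples, which may be technical.

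MyoD is a transcription factor that binds E-box sequences and starts the skeletal muscle programme. It works through enzymes that change chromatin: acetyltransferases such as p300 and PCAF (Kat2b) and SWI/SNF remodelers open muscle genes, while histone deacetylases and the Polycomb methyltransferase Ezh2 keep them silent in dividing myoblasts. p53 is a stress-activated transcription factor that halts the cell cycle and that also recruits acetyltransferases to its targets.

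Myod1 itself read 37440, 40169 and 45187 in wild type, 5352, 4024 and 5152 in MyoD-/- and 23450, 24450 and 18504 in p53-/-, so the library labels and the target went the same way; whether its probes lie in the deleted part is not known. The p53 transcript was not analysed here. Cdkn1a, a p53 target and cell cycle inhibitor, read 6502 to 8124 in wild type, 3640 to 6603 in MyoD-/- and 966 to 1887 in p53-/- at probe set 94881_at. Median array signals ranged from 462 to 564 (U74Av2), 730 to 776 (U74Bv2) and 455 to 546 (U74Cv2). Of 10 myoblast marker genes tested, 6 were lower and 2 higher in MyoD-/-, and 4 were lower and 1 higher in p53-/-; over 8 of them on U74Av2 and U74Cv2 the summed signal was 110534 to 117665 in wild type, 22433 to 30024 in MyoD-/- and 66822 to 74351 in p53-/-. Myod1, the gene knocked out in MyoD-/-, is among the 10 and the 8, so its signals given above are part of these sums. Of 9 fibroblast marker genes tested, 4 were higher in MyoD-/- and 0 changed in p53-/- (4 had an unadjusted p under 0.05 there with limma), with a summed signal over 8 of them of 34908 to 50932, 85885 to 88975 and 42245 to 59287 in the order wild type, MyoD-/- and p53-/-. The summed signal of 4 macrophage and leukocyte genes, those tested of 10 listed, was 2283 to 3104, 5927 to 8193 and 2371 to 2804 in the same order. Of these 4, 1 was called higher in MyoD-/- and 0 in p53-/-. No marker of any cell type was listed at 0, but an array signal above 0 does not show that a gene was expressed. The part of other cells in the differences below was not tested, and fewer cells of a type and less RNA per cell cannot be told apart in these bulk samples. The Y-linked demethylase Kdm5d passed the brightness level on 2 wild type arrays alone at 105120_f_at, too few to be tested. It read 1535 in wild type A and 2004 in wild type C but 72.2 in wild type B, and 72.2 to 357 in MyoD-/- and p53-/- A. At this gene wild type B stood apart from wild type A and C and read like the knockout arrays. Sex is not given in the labels, and its part in the differences below was not tested.

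The promoters of the members with the largest changes are shown because MyoD binds the E-box, CANNTG, and prefers the forms CAGCTG and CACCTG. Of the 86 genes, 72 had a promoter in the RefSeq table of build GRCm38.p6, and 14 did not, Chd7, Kdm6b, Carm1, Hdac1 and Chd1 among them. The 250 bases before each annotated start were searched on both strands, CACCTG in either orientation. The sequences below run 5′ to 3′ on the gene's own strand, with E-boxes in capitals. Smyd1 (chr6:71262282-71262531, minus strand), Smarcd3 (chr5:24602003-24602252, minus strand) and Kmt2d (chr15:98871206-98871455, minus strand) had lower signals in MyoD-/-, and Kat2b had higher ones and has 2 annotated starts (chr17:53566721-53566970 and chr17:53583876-53584125, plus strand).
Smyd1: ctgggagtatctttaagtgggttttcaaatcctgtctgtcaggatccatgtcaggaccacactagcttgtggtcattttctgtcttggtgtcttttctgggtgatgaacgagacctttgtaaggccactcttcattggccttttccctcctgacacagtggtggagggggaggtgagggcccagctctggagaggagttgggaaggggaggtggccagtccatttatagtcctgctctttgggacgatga
Smarcd3: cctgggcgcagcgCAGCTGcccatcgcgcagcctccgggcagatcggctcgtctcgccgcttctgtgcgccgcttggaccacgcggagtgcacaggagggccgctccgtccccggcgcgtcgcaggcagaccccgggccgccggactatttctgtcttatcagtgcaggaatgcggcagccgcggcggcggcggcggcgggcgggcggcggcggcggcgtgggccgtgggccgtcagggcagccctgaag
Kmt2d: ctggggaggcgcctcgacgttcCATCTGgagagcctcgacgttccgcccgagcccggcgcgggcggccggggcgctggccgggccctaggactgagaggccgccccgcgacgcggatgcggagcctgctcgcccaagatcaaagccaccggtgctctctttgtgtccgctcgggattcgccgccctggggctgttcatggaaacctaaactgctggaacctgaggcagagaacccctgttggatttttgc
Kat2b, first start: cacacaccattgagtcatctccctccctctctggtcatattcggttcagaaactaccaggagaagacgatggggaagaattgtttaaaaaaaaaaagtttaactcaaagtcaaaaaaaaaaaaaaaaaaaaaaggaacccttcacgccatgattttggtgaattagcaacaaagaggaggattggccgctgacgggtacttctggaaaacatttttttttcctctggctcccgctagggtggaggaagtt
Kat2b, second start: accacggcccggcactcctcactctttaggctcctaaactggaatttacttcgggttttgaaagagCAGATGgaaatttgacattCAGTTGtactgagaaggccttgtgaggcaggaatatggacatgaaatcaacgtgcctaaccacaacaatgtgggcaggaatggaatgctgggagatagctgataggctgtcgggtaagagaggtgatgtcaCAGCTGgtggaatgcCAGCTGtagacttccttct

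The Smyd1 window held no E-box, those of Smarcd3 and Kmt2d 1 each, and the second Kat2b window 4, of which 2 were CAGCTG. The 2 windows of Hdac9 on chromosome 12 held 2 and 3 E-boxes, with 1 CAGCTG each. Among all 32851 promoters of the table, 66.2% held CANNTG, 13% CAGCTG and 17.2% CACCTG. Among the 99 promoters of the member genes the shares were 54.5%, 9.09% and 15.2%, and among the 14 promoters, of 11 genes, of members called lower in MyoD-/- they were 71.4%, 14.3% and 35.7%. The last of these is 5 promoters of 3 genes, since Chd4 and Prmt8 count with 2 starts each. The calls of Chd4, Prmt8 and Smyd1 were at probe sets that needed the wild type arrays to be tested. Their direction is no support, and without Chd4 and Prmt8 the CACCTG match is left at Kdm4c alone. Of the 5 promoters of the 3 genes called higher, 3 held CANNTG, 3 CAGCTG and 0 CACCTG. A match is a description of letters and not a site, and a window without one says nothing about MyoD.

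MyoD-/- against wild type asked which of these genes change without MyoD, on all 3 chip types. Of the 146 member probe sets tested, 18 were called lower and 3 higher (limma, adjusted p under 0.05), while 5.66% and 4.98% of all 23636 tested probe sets were called in these directions. The calls fell on 13 genes with a lower and 3 with a higher probe set. Of the lower calls, 4 (Smyd1, Prmt8, Kdm6b and Chd4) were at probe sets that needed the wild type arrays to be tested. Their direction is no support. The median log2 difference of the members was -0.19, against -0.0037 over all tested probe sets, and 100 of the 146 lay below 0. Among all 23636, the MyoD-/- arrays lay without overlap below the wild type arrays at 3596 and above them at 3257. Per gene, taking 1 probe set each, 8 of 79 were lower and 2 higher, 10.1% and 2.53%, against 822 and 741 of 12060 genes, 6.82% and 6.14%. Smyd1 and Kdm6b are among the 8, each at the probe set that needed the wild type arrays, so their direction is no support here either. The SWI/SNF subunit Smarcd3, the muscle methyltransferase Smyd1, the methyltransferase Kmt2d, the remodeler Chd7 and the demethylase Kdm6b were among the genes that fell, and the acetyltransferase Kat2b, the deacetylase Hdac9 and the methyltransferase Smyd2 rose.

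**Figure D1:**
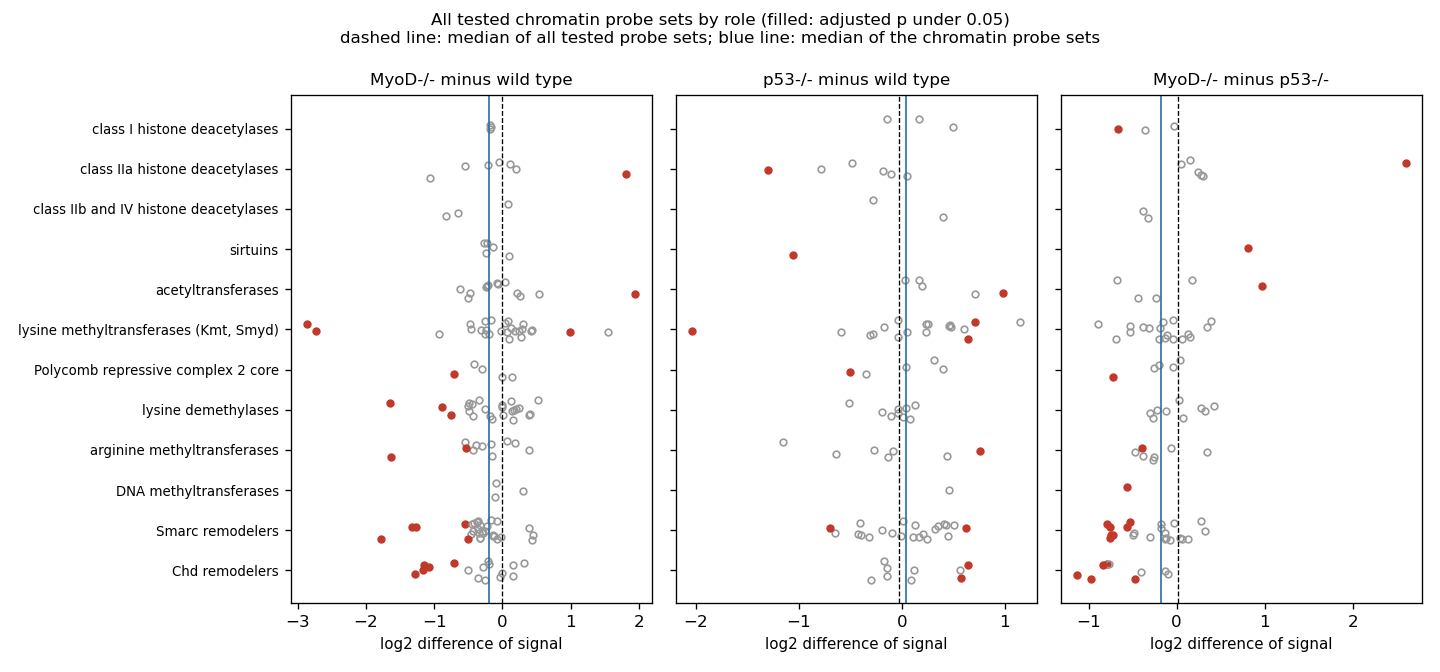
Log2 difference of signal for the tested chromatin probe sets (points, jittered vertically) by role, in 3 comparisons; filled points had an adjusted p under 0.05, the dashed line is the median of all tested probe sets and the blue line that of the chromatin probe sets. U74Bv2 probe sets are shown in the first panel alone. In MyoD-/- minus wild type 18 filled points lie below 0 and 3 above, and in p53-/- minus wild type 5 lie below and 7 above.

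Kmt2d, which methylates histone H3 lysine 4 at enhancers, showed the smallest adjusted p among the members. Its single probe set, on U74Bv2, read 10335, 9974 and 9998 in wild type and 1219, 1352 and 1221 in MyoD-/-, and 7671 on the lone p53-/- array. The 3 arrays of each of the first genotypes lay within a narrow band far from each other, and the p53-/- array lay closer to wild type. The log2 difference was -2.86 ± 0.12 (SE, n = 3 against 3, adjusted p = 6e-06). Among the arrays of a shared scan day, MyoD-/- A against wild type B and C, it was -2.89.

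Smyd1, a methyltransferase of heart and skeletal muscle needed for the assembly of sarcomeres, read 573, 1063 and 538 in wild type, 22.7, 62.2 and 63.5 in MyoD-/- and 82.6, 223 and 78.9 in p53-/-. All wild type arrays lay above all knockout arrays. Between MyoD-/- and wild type the log2 difference of Smyd1 was -2.73 ± 0.37 (SE, n = 3, adjusted p = 0.0011). This probe set passed the brightness filter through its wild type arrays alone, so a tested value had to differ, and a second, dimmer probe set of Smyd1 was not tested (204 to 308 in wild type, 168 to 240 in MyoD-/-). Of 14 differentiation genes tested, 12 were lower in MyoD-/- and 0 higher, with a median of -3.59, and 10 of 12 were lower in p53-/-. Over all genes tested, 6.82% and 6.52% were lower in these comparisons. Which differentiation genes also needed the wild type arrays to be tested was not examined, so their direction is no support.

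Smyd2, a methyltransferase of histones and of p53 protein, went the other way. It read 426, 315 and 379 in wild type, 726, 875 and 823 in MyoD-/- and 624, 672 and 562 in p53-/-, with no overlap between wild type and either knockout. It rose by 1.0 ± 0.17 (log2, SE, n = 3, adjusted p = 0.0041) at 162269_at. Its other tested probe set, 160794_at, had a log2 difference of 1.54 that was not called (adjusted p = 0.068). The other methyltransferases of these names, Kmt2a, Kmt2c, Kmt2e, Kmt5a, Kmt5b, Kmt5c, Smyd3 and Smyd5, had no called probe set in MyoD-/-, and Kmt2a, the founding mammalian homologue of Trithorax, stood at log2 -0.16 (adjusted p = 0.68).

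Smarcd3 encodes BAF60c, the SWI/SNF subunit that joins MyoD in human and mouse muscle precursors. At 108488_at its signal was 13711, 15833 and 17628 in wild type and 4392, 3936 and 5158 in MyoD-/-, and 10041 in p53-/- A. The groups did not overlap, and p53-/- A lay between them. All 3 tested probe sets of Smarcd3 fell in MyoD-/-, with log2 differences of -1.77 ± 0.15 and -1.32 ± 0.14 on U74Bv2 and -1.26 ± 0.14 on U74Cv2 (SE, n = 3, adjusted p = 0.00015, 0.00052 and 0.00036). Its sister subunits, which can take the same place in the complex, did not pass the test: Smarcd1 stood at log2 -0.36 (adjusted p = 0.33), and the 3 probe sets of Smarcd2 stood at 0.44, 0.45 and 0.39 (adjusted p = 0.1 to 0.29).

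Among the other subunits of SWI/SNF, the ATPase Smarca4 (BRG1) read 7506, 8586 and 8003 in wild type and 5765, 5574 and 5517 in MyoD-/- at 98463_at, and the scaffold subunit Smarcc1 read 4699, 5485 and 4877 in wild type and 3526, 3382 and 3305 in MyoD-/- at 102062_at. Both fell without overlap, Smarca4 by 0.51 ± 0.13 (adjusted p = 0.027) and Smarcc1 by 0.55 ± 0.12 (adjusted p = 0.017, both log2, SE, n = 3). Other probe sets of the same genes were not called, with log2 -0.08 and -0.36 for Smarca4 and -0.33 for Smarcc1. The core subunit Smarcb1 stood at log2 -0.07 (adjusted p = 0.79) and the alternative ATPase Smarca2 at -0.29 (adjusted p = 0.66). Of 30 probe sets of the Smarc names tested, 5 were called lower and 0 higher. These names also cover Smarca1, Smarca5, Smarcad1 and Smarcal1, which are not SWI/SNF subunits, so the counts are not those of that complex. Of the 30, 12 had an unadjusted p under 0.05 (limma) and 27 lay below 0, with a median of -0.32. Over all 23636 tested probe sets, 5621 had an unadjusted p under 0.05 and 11928 lay below 0. Of the 5 lower calls, 3 were of Smarcd3. Per gene, taking 1 probe set each, 1 of 13 Smarc genes was called lower, 7.69%, against 6.82% of all genes tested.

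Chd7, a remodeler found at active enhancers, fell at each of its 4 probe sets, on 3 chip types. At 103303_at it read 1389, 1287 and 1007 in wild type, 306, 531 and 604 in MyoD-/- and 1010, 1006 and 1288 in p53-/-. MyoD-/- lay below both other genotypes, which overlapped. The log2 differences in MyoD-/- were -1.27 ± 0.23, -0.71 ± 0.14, -1.14 ± 0.24 and -1.07 ± 0.29 (SE, n = 3, adjusted p = 0.0056, 0.012, 0.012 and 0.041). Chd4, the ATPase of the NuRD complex, fell at 1 of 3 probe sets (110040_at, 1401, 1375 and 1250 in wild type and 896, 345 and 427 in MyoD-/-, log2 -1.16 ± 0.28, SE, n = 3, adjusted p = 0.029), and the others stood at -0.36 (adjusted p = 0.059) and -0.25 (adjusted p = 0.29). Within the shared scan day the difference at 110040_at was -0.48, and this probe set would not have passed the brightness filter without the wild type arrays. Chd2 stood at log2 -0.04 (adjusted p = 0.93).

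**Figure D2:**
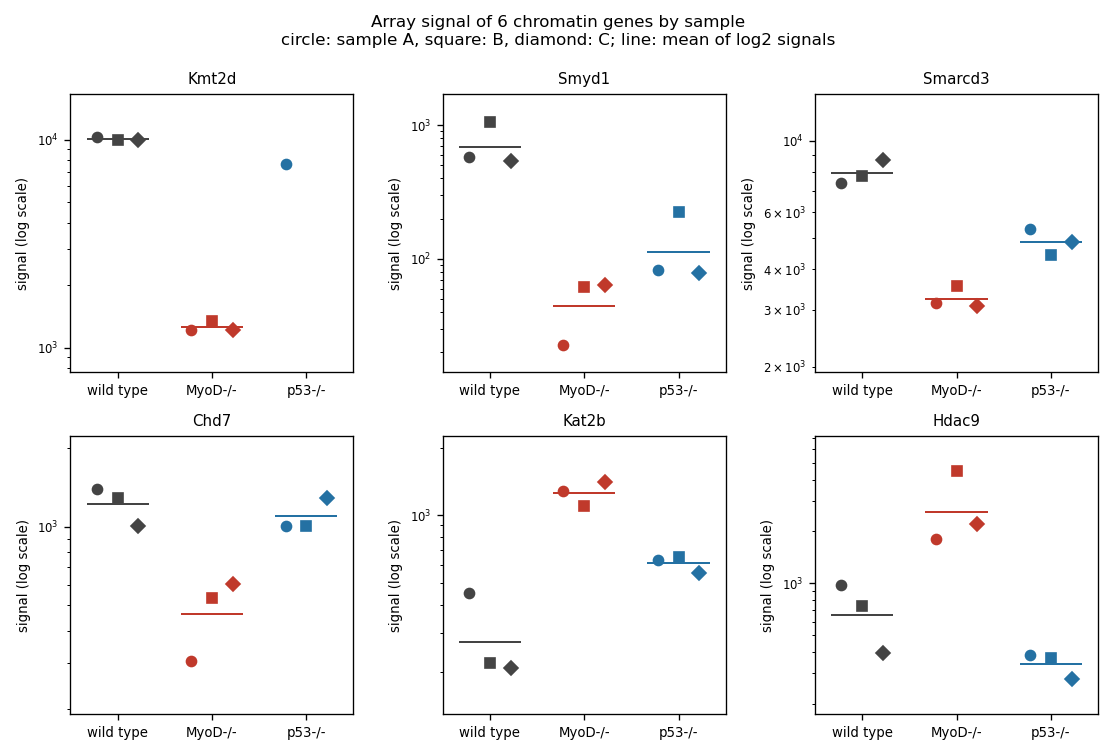
Array signal on a log axis for 6 genes, 1 probe set each, in 3 genotypes; each point is 1 array, its shape gives the sample letter, and the line is the mean of the log2 signals. The MyoD-/- arrays lie below all wild type arrays for Kmt2d, Smyd1, Smarcd3 and Chd7 and above them for Kat2b and Hdac9, and Kmt2d has a single p53-/- array.

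Kat2b encodes PCAF, an acetyltransferase that acetylates histones, MyoD and p53. It read 449, 219 and 208 in wild type, 1285, 1103 and 1406 in MyoD-/- and 633, 651 and 554 in p53-/-. The 3 genotypes did not overlap, with p53-/- in the middle. Kat2b rose by 1.95 ± 0.24 on the log2 scale without MyoD (SE, n = 3, adjusted p = 0.00057). It was the only one of 13 tested acetyltransferase probe sets to be called, and 1 more had an unadjusted p under 0.05. Its closest relative Kat2a (GCN5) stood at -0.62 (adjusted p = 0.32) on U74Bv2 and 0.27 (adjusted p = 0.66) on U74Av2, Crebbp at -0.22 (adjusted p = 0.39) and Kat5 (TIP60) at -0.09 (adjusted p = 0.88). Both probe sets of Ep300, the p300 acetyltransferase, were too dim to be tested, with signals of 38.4 to 378 over all arrays.

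Hdac9, a class IIa deacetylase that binds and represses MEF2 proteins in muscle, read 981, 739 and 395 in wild type, 1800, 4468 and 2204 in MyoD-/- and 384, 371 and 278 in p53-/-. MyoD-/- lay above every other array, with sample B the highest, and p53-/- lay below every wild type array. Hdac9 rose by 1.82 ± 0.38 on the log2 scale (SE, n = 3, adjusted p = 0.012) at its only probe set, whose _i_at suffix marks a set with fewer probes than usual. The other class IIa enzymes were not called: Hdac5 stood at 0.11 (adjusted p = 0.73), Hdac7 at 0.20 (adjusted p = 0.46), and the 4 tested probe sets of Hdac4 lay between -1.05 and -0.06, the lowest with an adjusted p of 0.062. The class I enzymes Hdac1, Hdac2 and Hdac3 stood at -0.17, -0.19 and -0.18 (adjusted p = 0.56, 0.51 and 0.55). The sirtuin Sirt1, an NAD-dependent deacetylase, stood at -0.23 (adjusted p = 0.39).

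Of 24 demethylase probe sets tested, 3 were called lower in MyoD-/- and 0 higher, 12.5% lower against 5.66% of all tested probe sets. Per gene, taking 1 probe set each, 2 of 13 were lower, Kdm6b among them, 15.4% against 6.82% of all genes tested. All 3 calls were on U74Bv2. Kdm6b (JMJD3), which removes the repressive methyl marks of histone H3 lysine 27, read 1350, 1000 and 1279 in wild type, 123, 271 and 553 in MyoD-/- and 913 in p53-/- A. Its groups did not overlap, and it fell by 1.65 ± 0.33 (log2, SE, n = 3, adjusted p = 0.014), at a probe set that needed the wild type arrays to pass the filter. Kdm4c, a demethylase of lysine 9, fell by 0.88 ± 0.17 (adjusted p = 0.013), from 2570 to 3600 in wild type to 1387 to 1812 in MyoD-/-, and p53-/- A read 1476. Kdm5b, a demethylase of lysine 4, fell by 0.75 ± 0.17 at 109135_at (adjusted p = 0.025), while its other tested probe sets stood at -0.44 and 0.15 and were not called. Kdm6a (UTX), the X-linked relative of Kdm6b, stood at -0.26 (adjusted p = 0.53) and Kdm1a (LSD1) at 0.17 (adjusted p = 0.72). With scan day as a block the adjusted p was 0.097 for Kdm4c and Kdm5b and under 0.05 for Kdm6b, and within the shared scan day the log2 differences were -0.81, -0.86 and -2.25 in this order.

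In the Polycomb complex that methylates lysine 27, Eed, the subunit that reads the mark, read 3134, 2985 and 2899 in wild type, 1878, 1674 and 1924 in MyoD-/- and 2147, 1979 and 2186 in p53-/-. All knockout arrays lay below all wild type arrays. Eed fell by 0.70 ± 0.12 without MyoD (log2 scale, SE, n = 3, adjusted p = 0.004). The catalytic subunits Ezh2 and Ezh1 stood at -0.41 (adjusted p = 0.2) and -0.30 (adjusted p = 0.59), and Suz12, its scaffold, at 0.14 (adjusted p = 0.78). Prmt1, the main arginine methyltransferase of mammalian cells, fell by 0.53 ± 0.11 (adjusted p = 0.0093), from 14980, 15290 and 16605 to 11138, 9907 and 11286. Prmt8, a membrane-bound relative known from brain, fell at 138052_g_at, where its log2 difference was -1.62 ± 0.35 (adjusted p = 0.014), a probe set that passed the filter through wild type alone (381 to 666, against 68.5 to 156), and stood at 0.18 at 138051_at (adjusted p = 0.87). The DNA methyltransferases Dnmt1, Dnmt3a and Dnmt3l stood at -0.10, 0.30 and -0.10 (adjusted p = 0.73, 0.36 and 0.8), and none of their 3 tested probe sets had an unadjusted p under 0.05.

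Of the 21 calls, 4 (Smyd1, Prmt8, Kdm6b and Chd4) were at probe sets that needed the wild type arrays to be tested, and their direction is no support. Of the other 17, 10 held under all alternatives in which the probe set was tested: Kmt2d, the 3 of Smarcd3, Kat2b, Eed, Smyd2, Chd7 at 103303_at, Prmt1 and Hdac9. Among the least stable were Chd7 at 135735_at (called in 9 of 19, adjusted p up to 0.16), Chd4 (12 of 19, up to 0.37 with scan day as a block) and Smarca4 (13 of 19, up to 0.11 without wild type B), and the 18 lower calls became 11 without wild type B. On U74Cv2 the wild type arrays came from 1 chip lot and the knockout arrays with a recorded lot from others, so for Hdac9, Prmt8 and the U74Cv2 probe sets of Smarcd3 and Chd7 lot and genotype cannot be told apart against wild type.

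p53-/- against wild type asked the same of p53, on U74Av2 and U74Cv2, with the wild type arrays that also served the comparison above. Of 88 member probe sets, 7 were called higher and 5 lower, while 4.79% and 5.35% of all 15767 tested probe sets were called in these directions. The median of the members was 0.04, against -0.02 over all. The arginine methyltransferase Carm1, the remodeler Chd1, Kat2b, Smyd2, Smyd5 and the SWI/SNF subunit Smarcd2 rose, and Smyd1, Smarcd3, Eed, Hdac4 and Sirt2 fell. Smyd1 and Hdac4 fell at probe sets that needed the wild type arrays to be tested, and their direction is no support.

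Carm1, a coactivator that methylates histone H3 arginines and works with MEF2 in muscle, read 2371, 2890 and 3027 in wild type, 3579, 3916 and 3371 in MyoD-/- and 4396, 4818 and 4945 in p53-/-. The 3 genotypes did not overlap, with p53-/- the highest. Carm1 rose by 0.76 ± 0.13 in p53-/- (log2, SE, n = 3, adjusted p = 0.0054), and its log2 difference in MyoD-/- was 0.39 (adjusted p = 0.092). Chd1, a remodeler that binds methylated lysine 4, rose at 2 of its 3 tested probe sets, by 0.58 ± 0.14 and 0.64 ± 0.17 (adjusted p = 0.024 and 0.034). At 101459_at Chd1 read 1892, 1858 and 1662 in wild type and 2659, 2574 and 2955 in p53-/-, and at 133979_at its difference was -0.15 (adjusted p = 0.8).

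Kat2b rose by 0.98 ± 0.24 in p53-/- (log2, SE, n = 3, adjusted p = 0.027) and Smyd2 by 0.65 ± 0.17 (adjusted p = 0.038), from the signals given above. Smyd5, another SET and MYND domain protein, rose by 0.71 ± 0.16 (adjusted p = 0.018) at 102090_f_at, from 548, 620 and 652 to 1000, 988 and 1123, and its 4 other tested probe sets were not called, between -0.28 and 0.47. The suffix _f_at marks probe sets that may match related sequences. Smarcd2 rose at 161077_f_at by 0.62 ± 0.15 (adjusted p = 0.028), from 2023, 2152 and 2109 to 3337, 2675 and 3861, and stood at 0.41 and 0.51 at 2 more.

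The log2 difference of Smyd1 in p53-/- was -2.04 ± 0.37 (SE, n = 3, adjusted p = 0.0074), again at the probe set that was tested through its wild type arrays alone, which fixed the direction. Smarcd3 fell by 0.70 ± 0.14 at 168558_f_at (adjusted p = 0.013), where it read 7395, 7768 and 8689 in wild type, 3147, 3558 and 3078 in MyoD-/- and 5322, 4428 and 4856 in p53-/-, so that the 3 genotypes were apart. Eed fell by 0.50 ± 0.12 (adjusted p = 0.024). Sirt2, a mostly cytoplasmic deacetylase of tubulin and histones, read 1380, 1397 and 1650 in wild type, 1500, 1349 and 924 in MyoD-/- and 783, 824 and 466 in p53-/-. It fell by 1.06 ± 0.23 (adjusted p = 0.017), and the p53-/- arrays lay below all others. Hdac4, a class IIa deacetylase that responds to nerve activity in muscle, fell by 1.30 ± 0.32 at 137676_at (adjusted p = 0.028), from 515, 832 and 717 to 273, 138 and 240, at a probe set that also needed the wild type arrays to be tested, and its other tested probe sets of these chips stood at -0.49 and -0.11, not called.

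Hdac1 and Dnmt1, an enzyme that copies DNA methylation at replication, stood just above the threshold in p53-/-, at 0.50 (adjusted p = 0.055) and 0.46 (adjusted p = 0.058). Each was higher in all p53-/- arrays than in any wild type array. The same was true of 2396 of all 15767 tested probe sets, and in 2472 all p53-/- arrays lay below. Hdac2 and Hdac3 stood at 0.17 and -0.14 (adjusted p = 0.54 and 0.62), Kmt2a at -0.03 (adjusted p = 0.95), Kdm1a at -0.11 (adjusted p = 0.84), Kdm6a at 0.01 (adjusted p = 0.99), Smarcb1 at 0.11 (adjusted p = 0.66) and Smarca2 at 0.01 (adjusted p = 0.99). None of the 9 demethylase probe sets tested was called, and 1 had an unadjusted p under 0.05. Cell division genes were higher in the same cells: 11 of 22 tested were called higher and 0 lower in p53-/-, with a median of 0.60, and their summed signal was 128873 to 140009 in wild type and 173019 to 179057 in p53-/-; their part in these differences was not tested.

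Of the 10 calls in p53-/- other than Smyd1 and Hdac4, Carm1 held under every alternative, and each of the other 9 was lost under at least 1, Sirt2 and Smarcd3 only without wild type C (adjusted p = 0.055 and 0.052). The 7 higher calls became 1 without wild type B, p53-/- A or p53-/- C, 2 without wild type A, 4 without p53-/- B, 5 without wild type C (2 of them among the 7) and 11 without MyoD-/- A, and the 5 lower calls became 0 without wild type C, 2 without wild type B and 3 without wild type A, p53-/- A or p53-/- B. For Smarcd3, Hdac4 and Chd1 at 137609_at, all on U74Cv2, chip lot and genotype cannot be told apart here either.

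The lone p53-/- array of U74Bv2 is not in these counts, and its test against wild type borrowed the spread of the other groups. None of its 58 member probe sets was called (limma), 9 had an unadjusted p under 0.05, all of them lower, against 1595 of all 7869 probe sets, of which 691 were higher, and the median was -0.12, against 0.051 over all; 0.75% of all were called higher and 2.92% lower. The largest member difference was that of Hdac11, a class IV deacetylase, at -1.56 (726 against 2071 to 2879 in wild type), a value from 1 array with no replicate of its own.

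**Figure D3:**
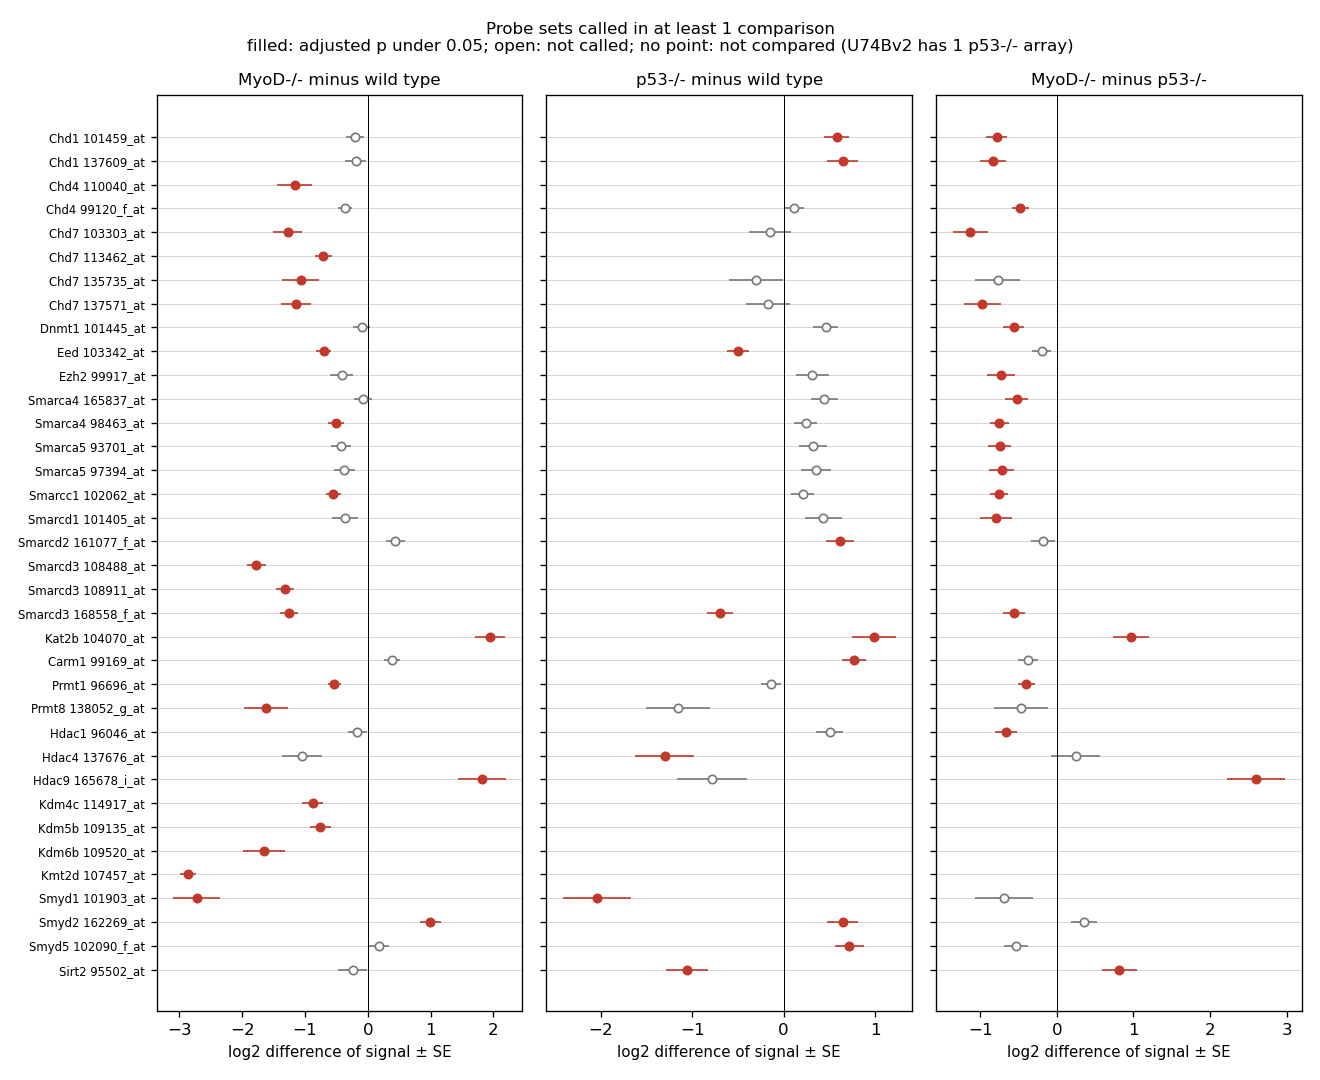
Log2 difference of signal with its standard error (bars) for each chromatin probe set called in at least 1 of 3 comparisons, ordered by role; filled points had an adjusted p under 0.05, and U74Bv2 probe sets are shown in the first panel alone. Smyd1, Smarcd3 and Eed are filled below 0 in both knockouts and Kat2b and Smyd2 above 0, against the same wild type arrays. The Smyd1 probe set was tested through its wild type arrays alone.

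MyoD-/- against p53-/- tested the difference between the knockouts directly, on the same 2 chip types. Of 88 member probe sets, 16 were called lower in MyoD-/- and 3 higher, while 6.77% and 6.2% of all 15767 were called in these directions. The median of the members was -0.18, against 0.01 over all, and the lower calls fell on 12 genes. Among all 15767, the MyoD-/- arrays lay without overlap below the p53-/- arrays at 2486 and above them at 2348. The remodelers made up most of them: 7 of 22 Smarc probe sets and 5 of 9 Chd probe sets were lower and 0 higher. Some genes count with more than 1 probe set here. Per gene, 5 of 12 Smarc and 3 of 5 Chd genes were lower, against 8.44% of all 9013 genes.

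Smarca4 read 8327, 9210 and 11187 in p53-/- against 5765, 5574 and 5517 in MyoD-/-, with wild type (7506 to 8586) between them. It was lower in MyoD-/- by 0.75 ± 0.13 at this probe set and by 0.53 ± 0.15 at 165837_at (log2, SE, n = 3, adjusted p = 0.0035 and 0.04), and the latter call held in 6 of 19 alternatives. Smarcc1 read 5272, 5585 and 6595 in p53-/- and differed by -0.76 ± 0.12 (adjusted p = 0.0032). Smarca5, the ATPase of the ISWI remodelers, read 1103, 1097 and 1175 in wild type, 687, 852 and 937 in MyoD-/- and 1476, 1543 and 1254 in p53-/- at 93701_at. Its genotypes did not overlap, and the knockouts differed by -0.75 ± 0.15 and -0.72 ± 0.16 at its 2 probe sets of these chips (adjusted p = 0.0097 and 0.016), while neither knockout was called against wild type. Smarcd1 differed by -0.79 ± 0.20 (adjusted p = 0.028) and Smarcd3 by -0.56 ± 0.14 (adjusted p = 0.028).

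Chd1 was lower in MyoD-/- than in p53-/- by 0.78 ± 0.14 and 0.84 ± 0.17 at the 2 probe sets that rose in p53-/- (log2, SE, n = 3, adjusted p = 0.0044 and 0.0083). Chd7 was lower by 1.13 ± 0.23 and 0.97 ± 0.24 (adjusted p = 0.0095 and 0.024), and 135735_at stood at -0.77 (adjusted p = 0.12). Chd4 was lower by 0.48 ± 0.11 at 99120_f_at (adjusted p = 0.016). At this probe set the wild type arrays (17917 to 21911) overlapped those of p53-/- (20579 to 23086) and not those of MyoD-/- (14319 to 16384).

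Hdac1 read 2107, 2307 and 2729 in wild type, 2316, 1917 and 2094 in MyoD-/- and 3833, 3304 and 3043 in p53-/-. The p53-/- arrays lay above all others, and wild type and MyoD-/- overlapped. The knockouts differed by -0.67 ± 0.15 (log2, SE, n = 3, adjusted p = 0.014). Ezh2 read 4730, 4383 and 3323 in wild type, 3244, 2372 and 3733 in MyoD-/- and 5108, 5382 and 4863 in p53-/-, a difference of -0.73 ± 0.18 between the knockouts (adjusted p = 0.025), and Dnmt1 differed by -0.56 ± 0.14 (adjusted p = 0.022). Prmt1 differed by -0.40 ± 0.11 (adjusted p = 0.033).

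**Figure D4:**
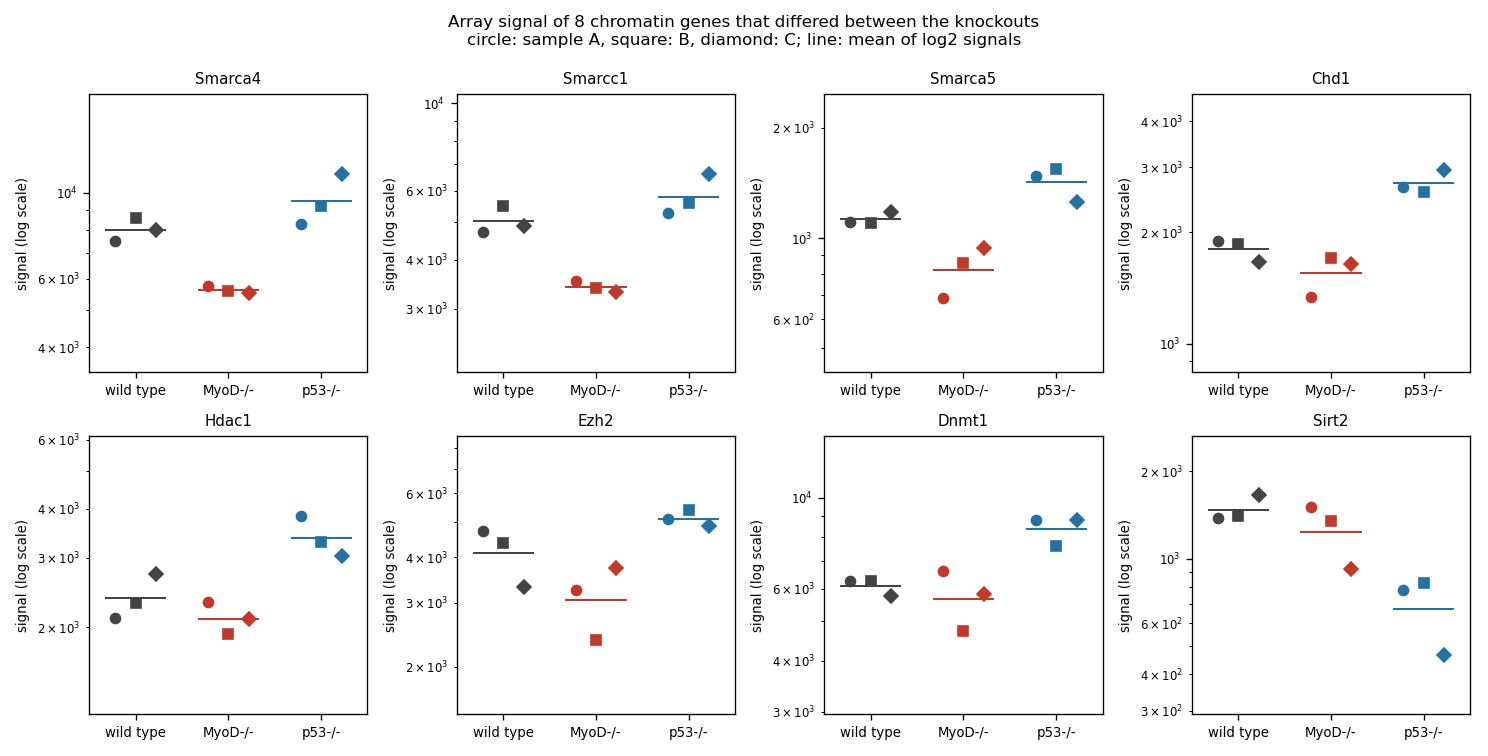
Array signal on a log axis for 8 genes whose signals differed between MyoD-/- and p53-/-, 1 probe set each; each point is 1 array, its shape gives the sample letter, and the line is the mean of the log2 signals. For Smarca4, Smarcc1, Smarca5, Chd1, Hdac1, Ezh2 and Dnmt1 every MyoD-/- array lies below every p53-/- array, and for Sirt2 every one lies above.

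Hdac9 was higher in MyoD-/- than in p53-/- by 2.60 ± 0.38 (log2, SE, n = 3, adjusted p = 0.0016), the largest difference of a member in this comparison. Within the chip lot that held MyoD-/- B and C and p53-/- A it was 2.73. Kat2b was higher by 0.97 ± 0.24 (adjusted p = 0.024) and Sirt2 by 0.82 ± 0.23 (adjusted p = 0.042). Hdac2, Hdac3, Hdac5 and Hdac7 stood at -0.35, -0.03, 0.30 and 0.15 and were not called (adjusted p = 0.16, 0.93, 0.25 and 0.58).

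Cell division genes stood beside these differences, with 6 of 22 lower in MyoD-/- than in p53-/-, 0 higher and a median of -0.47; their summed signal was 118965 to 163241 in MyoD-/-, which overlapped wild type and not p53-/-. Of the 19 calls, 7 held under all alternatives: Hdac9, Smarcc1, Smarca4 at 98463_at, both of Chd1, Chd7 at 103303_at and Smarca5 at 93701_at. Kat2b was lost under 6 of 19 (adjusted p up to 0.083) and Sirt2 under 10 of 19 (up to 0.13), the 3 higher calls became 1 without MyoD-/- A, p53-/- A or p53-/- C, and the 16 lower calls became 8 without MyoD-/- B or p53-/- C and 10 without p53-/- A.

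Genes that work with these enzymes but carry other names were read from a list of cofactors, readers and other complex subunits. In MyoD-/- 11 of 138 such genes were lower and 3 higher, 7.97% and 2.17%, against 6.82% and 6.14% of all genes tested, with a median of -0.09. The SWI/SNF subunits Arid1a and Actl6a (BAF53a) were lower by 0.74 and 0.84 on the log2 scale (adjusted p = 0.0072 and 0.011), Brd7, a bromodomain subunit, by 0.61 (adjusted p = 0.018), and the histone-binding Rbbp4, shared by deacetylase and Polycomb complexes, by 0.68 (adjusted p = 0.013). The Polycomb protein Bmi1 stood at -0.80 (adjusted p = 0.012) and its relative Pcgf5 at 1.55 (adjusted p = 0.004).

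In p53-/- 10 of 111 genes of that list were higher and 5 lower, 9.01% and 4.5%, against 6.06% and 6.52% of all 9013 genes, with a median of 0.12. Among those higher were the histone chaperone Asf1b at 1.09 (adjusted p = 0.012) and the chromatin protein Hmgb2 at 1.14 (adjusted p = 0.003). Between the knockouts 24 of 111 were lower in MyoD-/- and 2 higher, 21.6% and 1.8%, against 8.44% and 7.66% of all 9013 genes, with a median of -0.20. The SWI/SNF subunits Actl6a, Arid1a and Brd7 stood at -1.33, -0.86 and -0.75 there (adjusted p = 0.00094, 0.0031 and 0.0059), beside Smarca4 and Smarcc1 of that complex, and Rbbp4 stood at -1.0 (adjusted p = 0.0016).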

How the data were processed

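Messenger RNA of 9 myoblast samples was measured on 25 Affymetrix arrays of 3 chip types. The deposited signal intensities were made by the authors with MAS5, per the submitters' processing notes, which name no version. All arrays share a 2% trimmed mean of 1500.3 to 1501, so intensities were used as deposited, without further scaling. Scan days and chip lots came from the deposited array record files.

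Signals became log2(signal + offset), the offset being the 20th percentile of a chip type's signals (66.98, 145.7 and 106.6 on U74Av2, U74Bv2 and U74Cv2), which understates changes of dim genes. A probe set was tested if 3 arrays had it above their 40th percentile, which left 7890, 7869 and 7877. Genotype was fitted per chip type over all arrays with limma 3.58.1 (eBayes with trend, R 4.3.3), with two-sided p-values and Benjamini-Hochberg adjustment over every tested probe set of a comparison; the fit was tested on simulated data. A call is an adjusted p under 0.05, SE is limma's, and levels are compared only within a probe set. With 3 arrays against 3, the number of arrays limits precision.

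Names came from GEO's platform annotation, and all 189 probe sets matched the GRCm38.p6 gene table by gene ID. The text names every called probe set and a fixed set of regulators; with several probe sets, a gene is given at its brightest by mean percentile or at the one named. Members, lists and tests were chosen with earlier results of these data known.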

Additional observations from a re-analysis of the deposited data

How the results depend on the processing

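Offset, floor, filter, quantile normalization, trend, scan day, sample letter, chip lot (chosen after seeing the data) and each of the 9 samples left out were varied, 19 alternatives in all. No called log2 difference changed sign. With scan day as a block, higher calls became 11 in p53-/- against wild type (7 as reported) and 1 between the knockouts (3 as reported). In MyoD-/- that block lost the lower calls of Chd4 (110040_at), Chd7 (113462_at and 135735_at), Kdm4c, Kdm5b and Smarca4. Their adjusted p became 0.37, 0.105, 0.125, 0.097, 0.097 and 0.051 in this order (limma). On U74Bv2 wild type A shared no scan day with MyoD-/-, nor did MyoD-/- B and C with wild type. Scan day and genotype cannot be fully told apart there. The 60th-percentile filter left 3 lower calls in p53-/- (5 as reported). Leaving out 1 sample gave 3 to 4 higher and 11 to 19 lower calls in MyoD-/-, 1 to 11 and 0 to 6 in p53-/-, 1 to 2 and 8 to 15 between the knockouts, and 0 to 1 for the lone p53-/- array on U74Bv2; without MyoD-/- A, the array scanned on another day, p53-/- had 11 higher and 6 lower. The cause was not tested. With the sample letter as a replicate block, the counts were 3 higher and 17 lower, 5 and 4, and 3 and 13. Same-letter deviations from the genotype means correlated at -0.12 to 0.127 (U74Av2), -0.039 to 0.013 (U74Bv2) and -0.043 to 0.064 (U74Cv2). Those of different letters correlated at -0.124 to 0.096, -0.034 to 0.03 and -0.105 to 0.111 in this order. What samples of a letter share is not given in the labels, and these correlations cannot decide it. Over all probe sets, the 756 higher and 843 lower calls in p53-/- became 373 and 543 without p53-/- A, 413 and 595 without p53-/- C, 406 and 462 without wild type A, and 420 and 531 without wild type B. The 1177 and 1337 calls in MyoD-/- became 699 and 753 without wild type B, 810 and 791 without wild type A, 701 and 910 without MyoD-/- B, and 775 and 1009 without MyoD-/- C, and the 977 and 1068 between the knockouts became 602 and 665 without MyoD-/- B, 716 and 635 without p53-/- A, and 698 and 642 without p53-/- C. Within scan days that held both genotypes on U74Av2, U74Bv2 and U74Cv2, all 8, 8 and 5 calls in MyoD-/- kept their direction, as did the 14 and 5 calls between the knockouts on U74Av2 and U74Cv2. These arrays are part of those that made the calls, so the kept directions are no separate support. The calls in MyoD-/- include Smyd1, Prmt8, Kdm6b and Chd4, at probe sets that needed the wild type arrays to be tested.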
